A study of Mus musculus with 32 samples.

Results

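The ribosomal proteins of the large subunit were followed by Ribo-Seq in neural stem cells (NSCs) treated with interferon-β (IFN-β). A list of 46 gene symbols was matched to the Ensembl identifiers of the protein-coding genes, leaving out their pseudogenes, and all 46 were found among the 23035 genes of the footprint tables. The list does not hold every protein of the subunit. Ribo-Seq counts ribosome footprints, the stretches of mRNA that a translating ribosome shields from digestion. A gene's share of all footprints is therefore read as a guide to its share of the protein synthesis in a library. Duplicated reads were removed, and some reads also match pseudogenes, which limits this guide for the members.

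NSCs of the ventricular-subventricular zone, the stem cell niche along the lateral ventricles, were taken from C57BL/6 mice aged 8 to 12 weeks and cultured ex vivo. Cultures received vehicle, the buffer without the cytokine, or IFN-β, and were harvested after 2 h or 14 h. The labels name no genetic change in any group, and every culture was given cycloheximide, which halts elongating ribosomes, for 5 min before harvest. Each of the 4 groups held 4 footprint libraries and 4 total RNA libraries, and replicates carried the numbers 2, 3, 5 and 6 at the early time and 1 to 4 at the late one. The question was which of these proteins were translated more or less after an early and a late exposure to the cytokine, and how far the genes differed from one another. A footprint count is relative to the other footprints of its library, so total translation per cell was not measured, and fewer cells of a type and less RNA per cell cannot be told apart. Per the study's methods a replicate is a mouse or a culture from its own mouse, though the labels do not tie libraries to animals, and p-values measure the spread between these libraries.

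The large, or 60S, subunit joins peptide bonds, holds the tunnel through which the new protein leaves, and carries the stalks that bring tRNA and elongation factors in and out. The mRNAs of ribosomal proteins are known as TOP mRNAs because their transcripts start with a C followed by a run of pyrimidines. TOP mRNAs are translated or held back together, under the control of the kinase mTORC1 and the RNA-binding protein LARP1, and in the adult vSVZ protein synthesis is known to change as stem cells leave quiescence.

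The first bases of the members' transcripts are shown for 10 genes because the study of TOP mRNAs turns on them. Each window holds 10 bases before and 15 bases from the start that RefSeq annotates on GRCm38, 5′ to 3′ on the strand of the gene. Capitals mark a C followed by at least 4 pyrimidines where that run starts within 5 bases of the annotated start.
Rpl22l1: gcgcaagcccgttCTCTTCCCacgg
Rpl14: ggccctCTCTCTTCTCgctgagcgc
Rpl35: ccgccCTTTCCTCTTTCTCTCgaac
Rpl27a: cgtgagCTCCTCCCTTTTCCCTTTC
Rplp2: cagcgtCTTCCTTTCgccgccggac
Rpl38: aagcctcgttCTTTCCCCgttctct
Rpl37a: ctcgccggtctaaaaccgcgcatgc
Rpl11: ccataaggccacggggccggaagtc
Rpl27: ctgttcctgtctgctgctcgtgctg
Rpl41: gggccggctcggaagtgacgacacc

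On the plus strand these windows lie at chr3:28805498-28805522 for Rpl22l1 (ENSMUSG00000039221), at chr9:120571507-120571531 for Rpl14 (ENSMUSG00000025794) and at chr7:109519185-109519209 for Rpl27a (ENSMUSG00000046364). Rplp2 (ENSMUSG00000025508) has its window at chr7:141447641-141447665, Rpl38 (ENSMUSG00000057322) at chr11:114668570-114668594, Rpl37a (ENSMUSG00000046330) at chr1:72711250-72711274 and Rpl27 (ENSMUSG00000063316) at chr11:101442235-101442259. On the minus strand lie Rpl35 (ENSMUSG00000062997) at chr2:39005117-39005141, Rpl11 (ENSMUSG00000059291) at chr4:136053379-136053403 and Rpl41 (ENSMUSG00000093674) at chr10:128549154-128549178. The part of each window from the start on belongs to the annotated 5′ UTR or first exon, and the 10 bases before it lie upstream of the gene as RefSeq draws it.

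The table of RefSeq starts held an entry for 35 of the 46 members. A run starting within 5 bases of a start was found in 17 of the 35, 48.6%, against 21.2% of the 27025 genes in the table, and within 15 bases in 71.4% against 44.9%. Only the strand of the mRNA was searched. Rpl27 and Rpl37a had no such run even within 15 bases, whereas Rpl11 had one there that the narrower window missed. A match depends on where the start is annotated, and the transcripts used by these cells were not mapped. Rpl3, Rpl7, Rpl8, Rpl17, Rpl21, Rpl23a, Rpl29, Rpl30, Rpl32, Rpl36 and Rplp1 had no entry.

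Footprint libraries held 2956297 to 10505108 counts in coding sequence (CDS). The 9 NSC markers together held 11348 to 18193 CPM (counts scaled to library size) per library, and the 3 neuroblast markers 45.3 to 109. All 6 interferon-stimulated genes used as a check of the treatment rose at both times, with a median log2 fold change of 6.62 at 2 h and 11.44 at 14 h. The 5 microglia markers summed to 5.98 to 8.62 CPM with vehicle and to 21.0 to 26.7 CPM with IFN-β at 14 h, with their defining genes Aif1 and Cx3cr1 at 0 in every 14 h library. Of the 5, P2ry12 alone had enough footprints to be tested, and it rose (1.62, log2). In total RNA at 14 h P2ry12 went the other way (-1.03, edgeR adjusted p = 0.0130), and Csf1r (0.24) and Cx3cr1 (0.13) were not called. Foxj1, the ependymal marker, lay at 16.9 to 23.7 CPM with vehicle and at 42.3 to 56.5 CPM with IFN-β at 14 h. The part of these cells in the 14 h results was not tested.

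Replicate 3 stood apart at 2 h. In both groups its library was the lowest of the 4 for all 46 members. The members together took 0.521% of the footprints of the vehicle library of replicate 3 and 0.990%, 1.01% and 1.03% in the others, and with IFN-β they took 0.663% against 1.12%, 1.17% and 1.21%. Results at 2 h are therefore given with this pair, without it, and with the replicate number as a block. At 14 h, replicate 1 held the lowest vehicle value of 32 members and the highest of 10, and 8 of these 10 (Rpl3, Rpl7, Rpl9, Rpl11, Rpl15, Rpl23a, Rpl34 and Rpl35) were also highest in the IFN-β library of that number.

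Levels of the members differed widely per length. In the 14 h vehicle libraries, CPM per kilobase of CDS had a median of 390.2 over the 46 genes and ranged from 28.9 for Rpl15 to 1541 for Rpl37, a 53.3-fold span. Rpl37 stood at 1541 ± 200.4 (SD, n = 4) and Rplp2, one of the acidic stalk proteins, at 1485 ± 163. Rpl8 followed at 1301 ± 106 and Rplp1 at 1282 ± 58.1. These 4 densities lay within a few SD of each other, and no order among them is drawn. At the low end, Rpl3 had 61.8 ± 19.6, Rpl9 34.7 ± 16.5 and Rpl15 28.9 ± 9.59 CPM per kilobase, with SDs that overlap between Rpl9 and Rpl15.

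Many members have near-identical copies. Ribosomal protein genes have many processed pseudogenes, and 21 of the 46 CDSs had no stretch of 28 bases, about the length of a footprint, that was absent from the other transcripts. The footprint tables listed 48 such copies for 21 members, and a member's own row held 69.5% of the footprints of members and copies together at 14 h. The row of Rpl41 held 2.99% of its family's footprints, that of Rpl23a 4.35% and that of Rpl11 6.65%, and 10 members had under 50% on their own row: these 3, Rpl9, Rpl15, Rpl27, Rpl27a, Rpl29, Rpl35 and Rpl36. With copies added, Rpl41, the smallest protein of the ribosome, moved from 151 to 4816 CPM per kilobase and became the highest of the 46 (its deposited CDS is longer than RefSeq's, by which its own row stood at 278), while Rpl3, with no copy in the table, became the lowest at 61.8. The span thus widened, from 53.3-fold to 77.9-fold. Rpl35 moved from 171 to 1572 CPM per kilobase, Rpl27 from 343 to 1009, and the low Rpl9 and Rpl15 to 86.2 and 68.5. The plot of levels per length sets both values beside each other. Levels of these 10 members on their own rows are therefore uncertain. Copies were counted only where they had a row in the footprint tables, so other members with shared stretches are limited too. Rpl3, with no such row, had 2.37% of its 28-base stretches to itself.

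**Figure D1:**
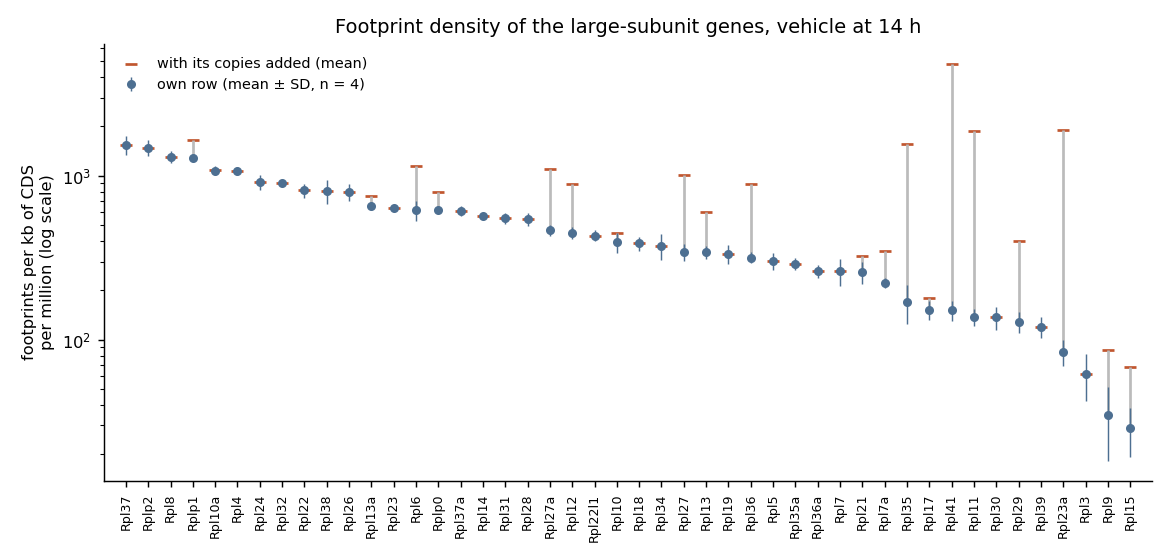
CPM of footprints per kilobase of CDS in the 14 h vehicle libraries (log axis) for the 46 large-subunit genes, as the mean ± SD of 4 libraries on a gene's own row and as the value with near-identical copies added. Own-row values run from 28.9 for Rpl15 to 1541 for Rpl37, and Rpl41 moves from 151 to 4816 when its copies are added.

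At 2 h, footprints of the large-subunit genes lay slightly above vehicle as a group, by an amount smaller than the spread between all 8 libraries. All 46 log2 fold changes were above 0, with a median of 0.26 against -0.015 over all 12104 genes tested, a lowest value of 0.12 for Rpl41 and a highest of 0.39 for Rpl17. By edgeR's quasi-likelihood test none of the 46 passed an adjusted p of 0.05, where 5.25% of genes tested were called higher and 2.01% lower, and in no member did all IFN-β libraries lie above all vehicle libraries, as they did in 7.77% of genes. No member had an unadjusted p under 0.05 either, and DESeq2 and limma-voom called 0. With the replicate number as a block, 39 of the 46 rose and none fell, against 15.9% of genes called higher. Without the pair of replicate 3, and with no block, 26 rose, against 8.67% of genes, and the median was 0.24. With the block as well, 40 rose, against 14.5% of genes. Rpl11, Rpl15, Rpl23a, Rpl30, Rpl38, Rpl39 and Rpl41 did not pass with the block, with adjusted p values from 0.0526 for Rpl38 to 0.407 for Rpl41.

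Each pair of equal number showed the small shift. The log2 ratio of IFN-β over vehicle was above 0 for 45 of the 46 members in pair 2, for 44 in pair 3, for 45 in pair 5 and for 43 in pair 6. Pair medians were 0.28, 0.37, 0.24 and 0.25 in that order, while 47.6% to 49.5% of all genes tested were above 0 in the same pairs. Over the members, 39 were above 0 in all 4 pairs and the other 7 in 3.

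Rpl17, which lines the exit tunnel, had the highest fold change at 2 h. Its vehicle libraries held 71.6, 33.1, 71.2 and 75.6 CPM for numbers 2, 3, 5 and 6, and its IFN-β libraries held 92.5, 45.1, 101 and 89.97 CPM. The IFN-β library was the higher in every pair, although that of replicate 3 lay below all vehicle libraries but its partner. The difference was 0.39 ± 0.30 (SE, log2, n = 4 and 4) with an adjusted p of 0.630 in edgeR, and 0.39 ± 0.06 with the block, adjusted p = 1.37e-05. Rpl9, which sits near the base of the acidic stalk, was measured on few footprints, with 12.1, 4.31, 10.8 and 10.9 CPM against 14.6, 5.46, 14.8 and 14.6 CPM (0.38 ± 0.36, adjusted p = 0.717 in edgeR, 0.0245 with the block). Rpl3, a protein beside the catalytic centre, had 46.9, 19.9, 40.3 and 44.5 CPM against 58.1, 32.0, 49.3 and 57.5 CPM, a difference of 0.38 ± 0.27 (adjusted p = 0.596, with the block 0.000195).

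The smallest differences at 2 h were those of Rpl41, Rpl11 and Rpl19. Rpl41 had 20.6, 12.8, 18.3 and 25.2 CPM with vehicle and 25.1, 13.6, 19.2 and 25.1 CPM with IFN-β. The groups overlapped and pair 6 was level, and the difference was 0.12 ± 0.24 (edgeR adjusted p = 0.906, with the block 0.407), or 0.072 with its copy added. Rpl11, which carries the 5S rRNA with Rpl5, had 69.9, 35.7, 63.6 and 66.7 CPM against 74.4, 37.4, 75.2 and 74.7 CPM, a difference of 0.15 ± 0.26 (adjusted p = 0.869, with the block 0.0774), or 0.20 with copies added. Without the vehicle library of replicate 3 the values of Rpl11 and Rpl41 fell below 0, to -0.023 and -0.033. Rpl19, a tunnel-exit protein, had 181, 109.5, 177 and 172 CPM against 203, 119.9, 182 and 209 CPM, a difference of 0.16 ± 0.20 (edgeR adjusted p = 0.815, with the block 0.0206).

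At 14 h, footprints of 41 of the 46 large-subunit genes fell and none rose, where 26.3% of 12113 genes tested fell and 26.2% rose. All 46 log2 fold changes were below 0, from -0.71 for Rpl22l1 to -0.088 for Rpl27, with a median of -0.46 against 0.0027 over all genes tested and with the middle 50% of the members between -0.53 and -0.39. In 32 of the 46 every IFN-β library lay below every vehicle library, as in 23.7% of genes tested. The members that did not pass in edgeR were Rpl38 (adjusted p = 0.0744), Rpl15 (0.0823), Rpl9 (0.119), Rpl41 (0.165) and Rpl27 (0.365). With the replicate block 44 fell, against 31% of genes, and Rpl27 and Rpl41 did not pass. Leaving out 1 library at a time left between 37 and 42 members lower, and 37 of the 41 calls held each time. The other 4, Rpl10, Rpl13a, Rpl19 and Rpl29, lost their call without 1 of several libraries, with adjusted p values up to 0.130.

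**Figure D2:**
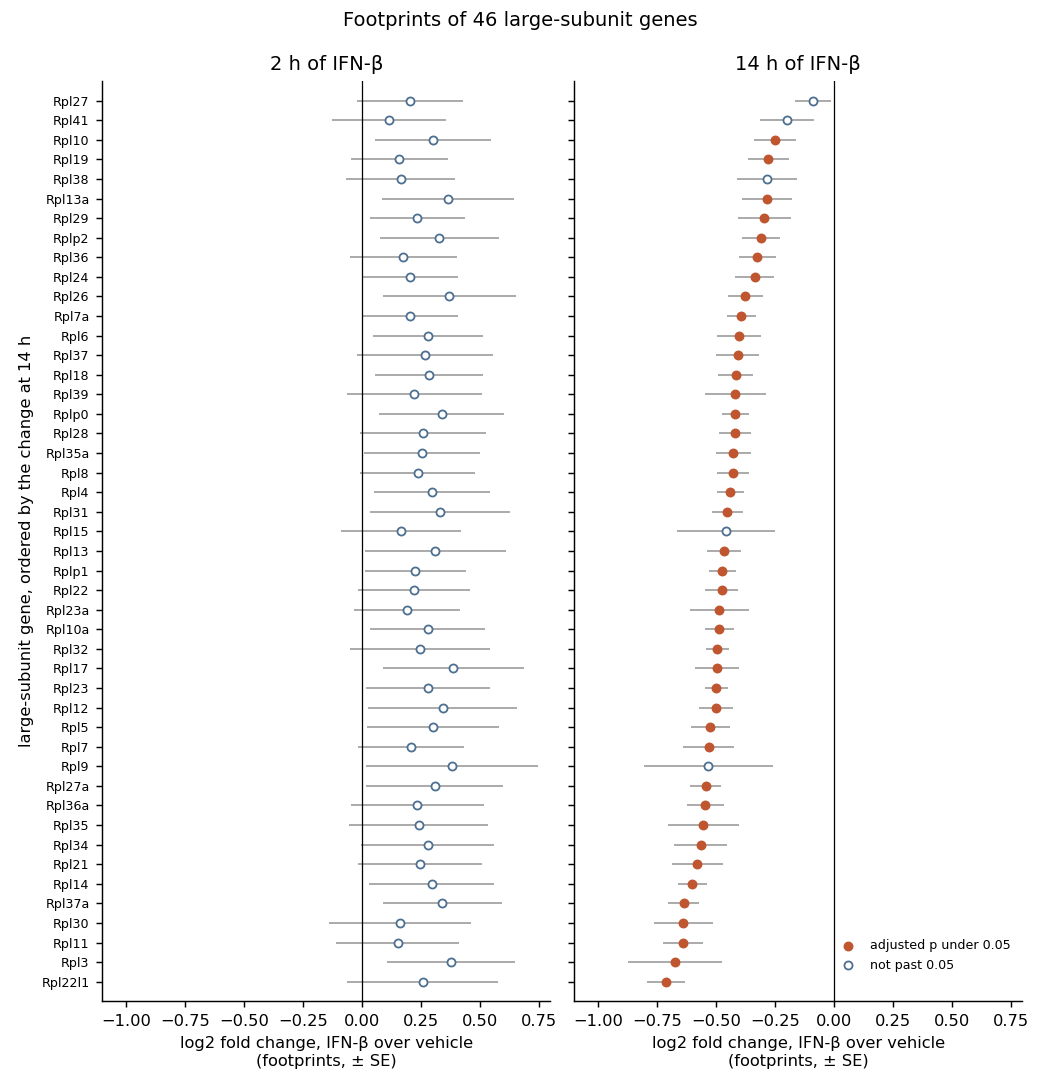
Log2 fold change of footprints (IFN-β over vehicle, ± SE, n = 4 and 4) for the 46 genes at 2 h and at 14 h, in the order of the 14 h values; filled points passed an adjusted p of 0.05 in edgeR. All 46 points lie above 0 at 2 h without passing the test, and all 46 lie below 0 at 14 h, where 41 passed.

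The members' summed share of all footprints moved the same way. At 14 h it was 1.13%, 1.27%, 1.26% and 1.23% in the vehicle libraries of numbers 1 to 4, a mean of 1.22% ± 0.0620 (SD, n = 4). With IFN-β it was 0.869%, 0.945%, 0.895% and 0.885%, a mean of 0.898% ± 0.0326. No IFN-β library reached the lowest vehicle library. At 2 h the means were 0.889% ± 0.246 with vehicle and 1.04% ± 0.255 with IFN-β, and the groups overlapped through replicate 3 while the IFN-β library was the higher in each pair. With copies added the shares were 1.75% and 1.30% at 14 h.

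**Figure D3:**
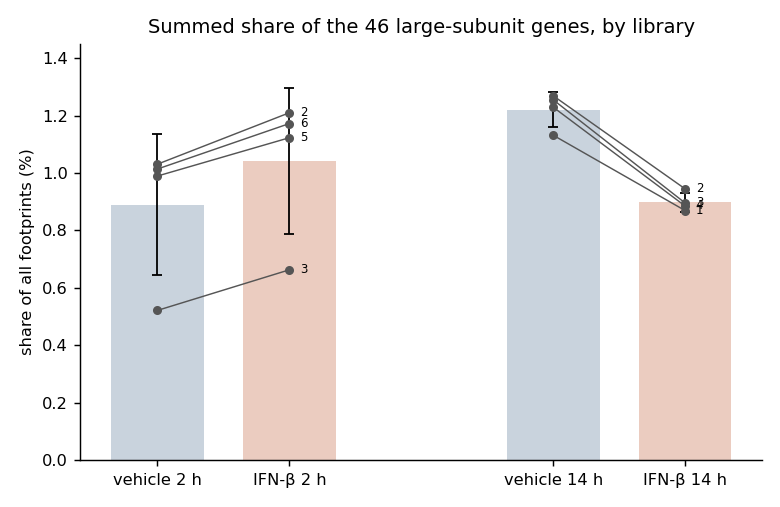
Summed share of all CDS footprints (percent) taken by the 46 large-subunit genes, as bars for the mean ± SD of 4 libraries and points for the libraries, joined where they carry the same replicate number. Pairs rise from vehicle to IFN-β at 2 h, with replicate 3 lowest at 0.521% and 0.663%, and drop at 14 h, from 1.22% to 0.898% on average.

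Footprints of all 5 stalk genes fell at 14 h, with a median of -0.47. Rplp0, the base on which the acidic proteins dimerise, had 563, 611, 595 and 577 CPM in the vehicle libraries of numbers 1 to 4 and 448, 475, 426 and 408 CPM with IFN-β. The groups did not overlap, and the difference was -0.42 ± 0.06 (SE, log2), edgeR adjusted p = 5.24e-05. Rplp1, which with Rplp2 contacts the elongation factors, went from 414, 453, 431 and 457 CPM to 316, 340.4, 293 and 314 CPM, again with no overlap (-0.47 ± 0.06, adjusted p = 1.92e-05). Its partner Rplp2 had 428, 546, 532 and 542 CPM against 374, 452, 403 and 425 CPM, where the low vehicle library of replicate 1 met the IFN-β range (-0.31 ± 0.08, edgeR adjusted p = 0.00666). Rplp1 and Rplp2 act as a dimer, yet no test of the difference between them was made. Rpl12, at the foot of the same stalk, had 194, 236, 229.9 and 231 CPM against 141, 169, 163 and 156 CPM (-0.50 ± 0.07, edgeR adjusted p = 9.23e-05). Rpl10a forms the opposite stalk, which guides spent tRNA out, and went from 642, 744, 729 and 684 CPM to 460.0, 524, 512 and 501 CPM (-0.49 ± 0.06, adjusted p = 2.43e-05). Neither Rpl12 nor Rpl10a had overlapping groups.

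Rpl5 and Rpl11 enter the subunit together with the 5S rRNA and, when unassembled, bind Mdm2, the ligase of p53. Both fell. Rpl5 had 226, 295, 287 and 268 CPM with vehicle and 166, 197, 196 and 188 CPM with IFN-β (-0.52 ± 0.08, edgeR adjusted p = 0.000171), and Rpl11 had 86.0, 70.4, 66.6 and 70.0 CPM against 51.9, 48.5, 44.1 and 44.4 CPM (-0.64 ± 0.09, adjusted p = 4.03e-05). The groups of neither gene overlapped. The size of the Rpl11 value rests on its own row: with its 4 copies added it was -0.35, edgeR adjusted p = 0.000208, in the alternative chosen after the data were seen.

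For the proteins around the catalytic centre, footprints of Rpl3, Rpl8 and Rpl10 all fell. Rpl8 was among the members with most footprints, with 887, 1027, 1019 and 1078 CPM against 699.9, 769, 722 and 792 CPM (-0.43 ± 0.07, edgeR adjusted p = 0.000147), and its groups did not overlap. Rpl3 had the second lowest fold change of the members, at 110.04, 61.7, 60.4 and 66.8 CPM against 66.6, 39.6, 48.2 and 37.9 CPM (-0.67 ± 0.20, edgeR adjusted p = 0.0127). Its vehicle library of replicate 1 lay far above the other 3, and the IFN-β library of that number overlapped them. Rpl10, added late in assembly next to the tRNA sites, was nearer 0, at 199.5, 273, 265 and 274 CPM against 194, 220.3, 214 and 221 CPM (-0.25 ± 0.09, edgeR adjusted p = 0.0339). Its groups overlapped through replicate 1, and its call was lost in 5 of the 8 fits that left out 1 library, with an adjusted p of up to 0.113.

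Footprints of all 8 genes for the exit tunnel and its mouth fell, with a median of -0.44. Rpl4, whose long loop reaches into the tunnel wall, had the most footprints of any member, with 1261, 1402, 1426 and 1288 CPM against 969, 1022, 1040.2 and 936 CPM (-0.44 ± 0.06, edgeR adjusted p = 3.91e-05). No IFN-β library of Rpl4 reached a vehicle library. Rpl17, the highest member at 2 h, went from 74.8, 96.3, 90.4 and 75.2 CPM to 51.9, 63.0, 63.0 and 59.4 CPM at 14 h (-0.50 ± 0.09, adjusted p = 0.000601), also without overlap. Rpl39, a small basic protein near the tunnel's end, was measured at 21.1, 15.5, 16.6 and 20.0 CPM against 13.7, 11.3, 15.0 and 14.4 CPM (-0.42 ± 0.13, edgeR adjusted p = 0.0161). Rpl19 had 159, 202, 206 and 218 CPM against 147, 162, 164 and 174 CPM (-0.28 ± 0.09, edgeR adjusted p = 0.0174) with overlapping groups, and lost its call in 3 of the 8 fits that left out 1 library.

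Of the 2 members grouped here as bridges to the small subunit, a group not meant to be complete, Rpl24 passed and Rpl41 did not. Rpl24 had 369.9, 464, 431 and 467 CPM against 299, 369.8, 344 and 359 CPM, with the highest IFN-β library touching the lowest vehicle library (-0.34 ± 0.08, edgeR adjusted p = 0.00419). Rpl41 had 18.5, 22.5, 18.4 and 23.9 CPM against 18.1, 15.9, 19.4 and 19.8 CPM, with overlap (-0.20 ± 0.11, edgeR adjusted p = 0.165). With its copy added Rpl41 was at -0.12.

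Rpl22 and Rpl22l1 encode paralogs that can take the same place on the ribosome, and Rpl22 is known to hold down the expression of Rpl22l1. Both fell at 14 h, and Rpl22l1 had the lowest value of all members. Rpl22l1 went from 145, 168, 168 and 151 CPM to 78.6, 101, 104 and 99.2 CPM (-0.71 ± 0.08, edgeR adjusted p = 1.05e-05), and Rpl22 from 271, 344, 325 and 311 CPM to 209.8, 234, 223 and 233 CPM (-0.48 ± 0.07, edgeR adjusted p = 0.00011). In neither gene did the groups overlap. Per length, Rpl22 stood at 815 ± 80.6 and Rpl22l1 at 432 ± 32.4 CPM per kilobase in the 14 h vehicle libraries. By the longer CDS of RefSeq, Rpl22 stood at 691, while Rpl22l1 was unchanged.

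Among the other 24 members, 20 fell, with a median of -0.46. Rpl37a, a small zinc-binding protein, went from 149.8, 173, 176 and 175 CPM to 100.0, 114, 107 and 111 CPM, with no overlap and the smallest p of the named members (-0.64 ± 0.07, edgeR adjusted p = 3.56e-06). Rpl30, which in its free form can bind its own transcript in yeast, had 57.2, 46.04, 47.1 and 38.4 CPM against 30.4, 30.0, 35.3 and 25.1 CPM (-0.64 ± 0.13, edgeR adjusted p = 0.000907). Rpl34 had 166, 122, 120.3 and 116 CPM against 97.4, 86.4, 95.4 and 76.6 CPM (-0.56 ± 0.11, edgeR adjusted p = 0.00102). All 3 had separate groups, and replicate 1 was the lowest vehicle library for Rpl37a but the highest for Rpl30 and Rpl34.

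Rpl13a, Rpl38 and Rpl27 were among the members nearest 0, and Rpl9 among the least precise. Rpl13a, known to leave the ribosome after interferon-γ in myeloid cells and join the GAIT complex, had 405, 415, 395 and 372 CPM against 389, 365, 299 and 257 CPM (-0.28 ± 0.11, edgeR adjusted p = 0.0373). Its groups overlapped through replicate 1, and its call was lost in 6 of the 8 fits that left out 1 library. Rpl38, known for its part in the translation of Hox mRNAs in the embryo, had 130.03, 187, 169.8 and 194 CPM against 112, 149.6, 131 and 164 CPM (-0.28 ± 0.13, edgeR adjusted p = 0.0744, with the block -0.30 ± 0.04 and 1.51e-06). Within each pair its IFN-β library was the lower. Rpl27 had 117, 146, 139 and 158 CPM against 129.8, 136, 132 and 131 CPM, with IFN-β values inside the vehicle range and a higher IFN-β value in pair 1 (-0.088 ± 0.08, edgeR adjusted p = 0.365, with the block 0.0779), and was at -0.11 with its copy added. Rpl9 had 33.2, 11.9, 14.3 and 20.6 CPM against 16.7, 12.2, 15.3 and 10.99 CPM, a value carried by the pairs of numbers 1 and 4 (-0.53 ± 0.27, edgeR adjusted p = 0.119, with the block 0.00713).

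**Figure D4:**
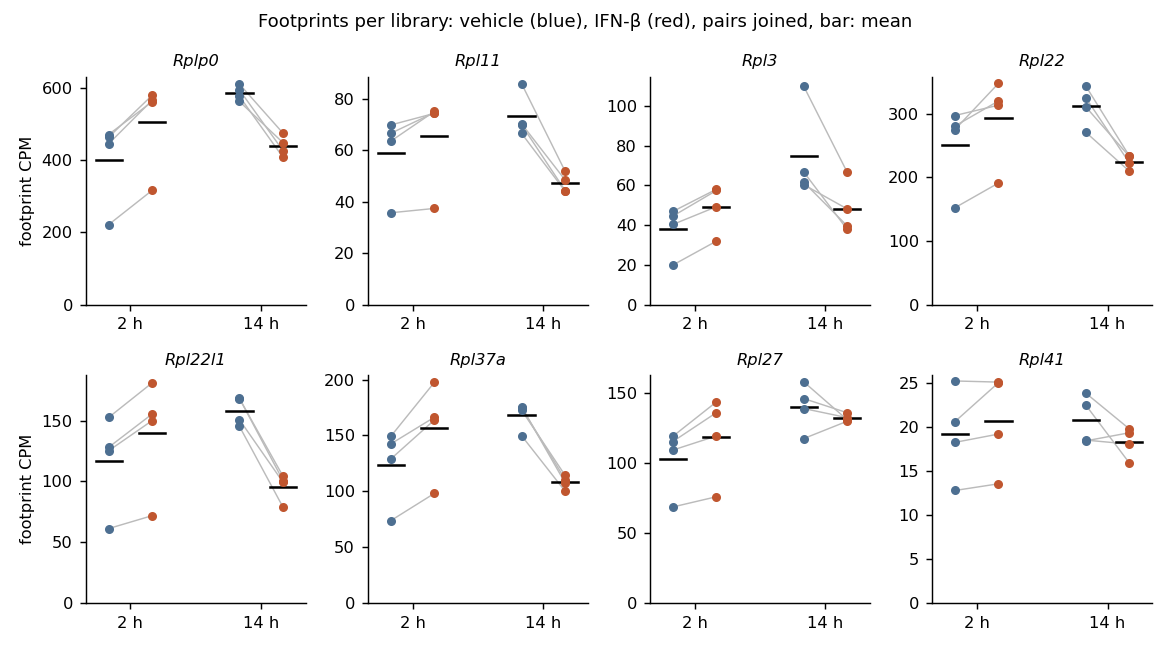
Footprints in CPM (counts scaled to library size) in each of the 16 libraries for Rplp0, Rpl11, Rpl3, Rpl22, Rpl22l1, Rpl37a, Rpl27 and Rpl41, vehicle in blue and IFN-β in red, at 2 h and 14 h. Vehicle and IFN-β points separate at 14 h for Rplp0, Rpl11, Rpl22, Rpl22l1 and Rpl37a and overlap for Rpl3, Rpl27 and Rpl41, and replicate 3 is the lowest of each group at 2 h.

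The gene-to-gene spread at 14 h was small beside the shared shift. The SD of the 46 log2 fold changes was 0.13, with a median SE per gene of 0.08. At 2 h the SD was 0.07 and the median SE 0.26, in fits without the replicate block. That 2 h SE holds the shift of replicate 3, which was lowest for all 46 members, so it does not gauge differences between genes. Every member was then set against the median of the 46 within its own pair. At 14 h 9 genes lay above that median in all 4 pairs (Rpl4, Rpl7a, Rpl10, Rpl19, Rpl24, Rpl27, Rpl36, Rpl38 and Rplp2) and 9 below it (Rpl5, Rpl11, Rpl12, Rpl14, Rpl21, Rpl22l1, Rpl27a, Rpl32 and Rpl37a). The farthest were Rpl27, above by 0.37 ± 0.15 (SD, n = 4, log2), and Rpl22l1, at -0.28 ± 0.14. Rpl10 lay above by 0.21 ± 0.11 and Rpl37a at -0.19 ± 0.05. At 2 h 7 genes lay above in all 4 pairs (Rpl3, Rpl4, Rpl12, Rpl26, Rpl31, Rplp0 and Rplp2) and 4 below (Rpl24, Rpl27, Rpl29 and Rpl41). On their own rows, Rpl24 and Rpl27 lay below the members' median in every 2 h pair and above it in every 14 h pair. Rpl27 held 33.8% of its family's footprints on its own row at 14 h. With copies added, the 14 h value of Rpl11 lay above the members' median of -0.446, no longer below it. At 2 h the deviations of Rpl27 ran from -0.22 to -0.007 and those of Rpl24 from -0.14 to -0.031. Some deviations would fall on the same side in all 4 pairs by chance, and the counts were not tested against that.

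These deviations were compared between pairs as a description over the 46 genes, which share libraries. At 14 h the correlation between pairs ran from 0.09 to 0.71 with a median of 0.24, and at 2 h from -0.25 to 0.48 with a median of 0.13. The fold changes at 14 h had a Pearson correlation of -0.15 with CDS length and of 0.14 with the mean number of footprints. Members with a pyrimidine run within 5 bases of the annotated start, as printed for Rpl22l1 and Rplp2, had a median of -0.43 (17 genes, -0.71 to -0.28). Members with an entry and no such run, among them Rpl37a and Rpl27, had a median of -0.45 (18 genes, -0.64 to -0.088). The range without a run reached closer to 0, and the medians were level.

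The drop at 14 h showed in every pair. Of 46 members, 1 was above 0 in pair 1 (Rpl27), 1 in pair 2 (Rpl9), 3 in pair 3 and none in pair 4. Pair medians were -0.41, -0.46, -0.46 and -0.46, while 49.2% to 50.8% of all genes tested were above 0. Of the members 42 were below 0 in all 4 pairs.

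**Figure D5:**
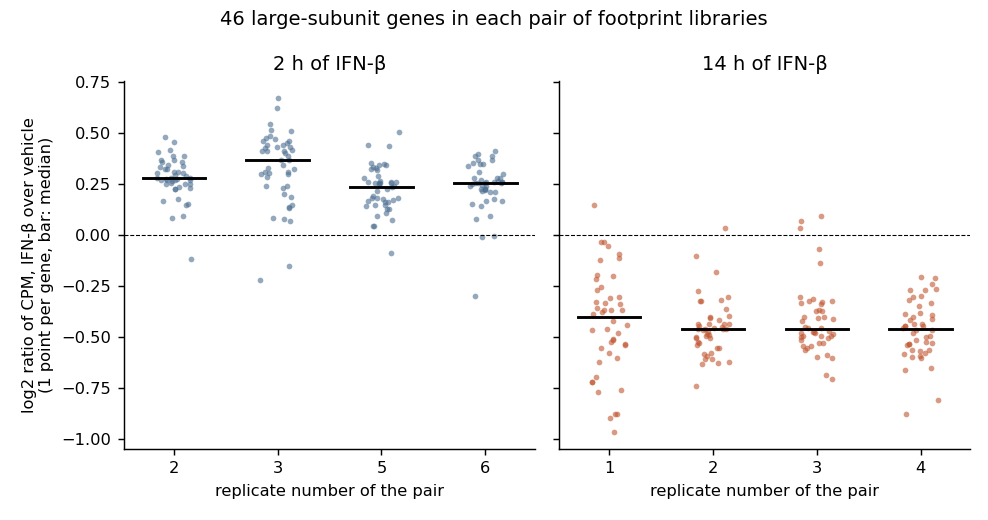
Log2 ratio of IFN-β over vehicle CPM for the 46 genes in each of the 8 pairs of equal replicate number, 4 at 2 h and 4 at 14 h, with a bar at the median. Medians lie between 0.24 and 0.37 at 2 h and between -0.46 and -0.41 at 14 h.

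Effects at both times were compared in 1 fit over the 16 footprint libraries, as the interaction of time and treatment. All 46 differences, 14 h minus 2 h, were below 0, with a median of -0.73 against 0.015 over 12508 genes. Of the 46, 6 passed, all lower, a smaller share than the 15.5% of all genes called lower. These were Rpl37a (-0.97 ± 0.28, edgeR adjusted p = 0.0155), Rpl14 (-0.89 ± 0.29, 0.0288), Rplp1 (-0.69 ± 0.24, 0.0365), Rpl10a (-0.75 ± 0.27, 0.0413), Rpl22l1 (-0.97 ± 0.35, 0.0473) and Rpl7 (-0.73 ± 0.27, 0.0485). Rpl3 had the lowest difference, -1.02 ± 0.38, and did not pass (adjusted p = 0.0506). At the other end stood Rpl27 at -0.28 ± 0.25, Rpl41 at -0.30 ± 0.28 and Rpl19 at -0.43 ± 0.24. The count moved with replicate 3 at 2 h: with the replicate block 45 of 46 passed against 27.5% of genes, and without both 2 h libraries of that number 42 passed against 21.2%, or 45 against 26.9% with the block. Rpl41 did not pass with the block (adjusted p = 0.0555). Leaving out single libraries gave between 1 and 42 calls.

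Total RNA was too thin to follow the members one by one. Mean counts per library had a median of 11.1 over the 46 genes at 2 h and of 1.56 at 14 h, with 20 and 41 members under 10 counts. At 2 h 25 members could be tested and at 14 h 6, and by edgeR none was called, where 0.799% and 6.28% of genes tested were called in either direction. At an unadjusted p under 0.05 there were 2 and 1, and DESeq2 called 0 at both times. Their medians were 0.39 and 0.28, and leaving out 1 library moved them from 0.14 (without the IFN-β library of replicate 2) to 0.56 (without the vehicle library of replicate 6) at 2 h and from 0.070 (without the IFN-β library of replicate 1) to 0.33 at 14 h. Translation efficiency (TE) was the interaction of library kind and treatment, called at an adjusted p of 0.1. Genes entered this fit with 10 counts in 4 or more libraries of either kind, so footprints alone could carry a member in. At 2 h no member of 46 was called, against 0.815% of genes, with a median of 0.052, and 1 member had an unadjusted p under 0.05 while DESeq2 called 0. At 14 h Rpl18 (-0.93 ± 0.22, edgeR adjusted p = 0.00823), Rpl7a (-1.24 ± 0.33, 0.0250) and Rpl31 (-0.87 ± 0.28, 0.0692) were lower. None was higher, and over all genes 3.96% were called lower. The median over the 46 was -0.65 against 0.021 over all genes. However, 41 of the 46 averaged under 10 RNA counts and 2 had 0, and the median TE ratio of the members had an SD of 0.49 between the 4 pairs. This median is therefore not read as a change in TE of the members. With the block Rpl18 alone passed (adjusted p = 0.0381), against 2.55% of genes. Whether the 14 h drop in footprints came with a change in mRNA was not detectable for most members at this depth.

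Other genes of the ribosome were read from fixed lists, beside all genes tested, of which 26.3% fell and 26.2% rose at 14 h and 15.9% rose at 2 h with the block. Of 34 small-subunit genes 33 fell in footprints at 14 h, with a median of -0.54, from -0.79 for Rps27 to -0.15 for Rps27l. At 2 h none passed (median 0.29), or 29 rose with the block. Of 54 factors of 60S assembly 42 fell at 14 h (median -0.35), with Grwd1, a chaperone of Rpl3, lowest at -0.78 and the helicase Ddx54 highest at 0.11, which did not pass. At 2 h their median was 0.20, none passed, and 26 rose with the block. Of 17 listed genes for translation factors and other products of TOP mRNAs 16 fell at 14 h (median -0.35), from Nap1l1, a histone chaperone on that list, at -0.87 to Btf3 at -0.22, and 13 rose at 2 h with the block against none without it. RNA polymerase I, which makes the large rRNAs, and its factors had 9 of 15 genes lower at 14 h (median -0.25), from Cd3eap at -0.82 to Taf1b at 0.18, which did not pass.

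The large subunit of the mitochondrial ribosome, whose mRNAs are not TOP mRNAs as a class, gave a mixed picture. Of its 48 genes 18 fell and 6 rose at 14 h, with a median of -0.14, from Mrpl42 at -0.75 to Mrpl30 at 0.59. At 2 h its median was -0.0043 with no call, and 4 of 48 rose with the block, a smaller share than the 15.9% of all genes. Its share of all footprints was 0.321% ± 0.00854 (SD, n = 4) with vehicle and 0.299% ± 0.00791 with IFN-β at 14 h. Of the paralogs of large-subunit genes that are not members, Rpl7l1 fell at 14 h (-0.33, edgeR adjusted p = 0.000614). Rpl36al was at -0.32 (adjusted p = 0.0663) and Rpl39l at -0.27 (adjusted p = 0.297). Rpl3l and Rpl10l held at most a few counts.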

How the data were processed

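Footprint and total RNA tables held raw counts per Ensembl gene as deposited by the authors: CDS counts for footprints, gene body counts for total RNA. Per the study's methods and submitters' notes, reads were trimmed with Trim Galore 0.4.4, aligned with Bowtie 0.12.7 to mm10/GRCm38 and duplicated reads were removed, which limits the count a short, highly translated CDS can reach. Here, counts were scaled by TMM, genes reaching 10 counts in 4 or more libraries were kept, and edgeR 4.0.16 (quasi-likelihood, two-sided, Benjamini-Hochberg over all genes tested) compared IFN-β with vehicle. Genes were called at an adjusted p of 0.05, or 0.1 for TE. DESeq2 1.42.0, limma 3.58.1 and other alternatives are compared in the closing section. Scripts were tested on simulated data. Total RNA libraries held 1370008 to 7877753 counts.

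Members, lists and tests were chosen with earlier results of these data known. Named were the members with the highest and lowest changes (5 and 5 at 14 h, 3 and 3 at 2 h and in the difference) and members with set roles, with Rpl14 and Rpl7 added because they passed the test of the difference, and Rpl7a, Rpl18 and Rpl31 because they passed that of TE. Replicate numbers paired the samples: deviations of same-numbered libraries correlated at 0.345 to 0.821 (2 h, 4 pairs) and 0.203 to 0.434 (14 h, 4 pairs). Those of differently numbered ones correlated at -0.642 to 0.336 and -0.393 to 0.116. Deviations were taken from the group means and cancel within a group. Positive same-numbered values therefore pull the differently numbered ones down, and part of this contrast is built in. Ratios within pairs used a pseudocount of 0.5 CPM. Near-identical copies were rows for which at least 20% of a member's 28-base stretches were shared. Some genes of the fixed lists are not reported here.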

Additional observations from a re-analysis of the deposited data

Results flagged for a closer look

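Among the 4 groups' summed shares, the library of replicate 3 at 2 h lay far below the other 3 with vehicle (0.521%) and with IFN-β (0.663%), by more than Dixon's 95% critical value of 0.829 for 4 samples. Among the 6 members with the highest and lowest fold changes at 2 h, which are given singly for that time, the same library was the low one for Rpl17 (33.1 CPM) and Rpl19 (109.5 CPM) with vehicle, and for Rpl9 (5.46 CPM) and Rpl11 (37.4 CPM) with IFN-β. At 14 h the vehicle library of replicate 1 lay below the other 3 for Rpl10 (199.5 CPM), Rpl12 (194 CPM), Rpl37a (149.8 CPM) and Rplp2 (428 CPM), and above them for Rpl3 (110.04 CPM) and Rpl34 (166 CPM). Over all members 49 of 184 groups of 4 libraries passed that value, 25 of them for replicate 3 with vehicle and 15 with IFN-β at 2 h, among them Rplp0, Rpl10 and Rpl12 in both groups, where chance alone passes about 5% of groups. Members share their libraries, so these are not separate events.

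The change differed between 14 h and 2 h, by the interaction in edgeR, for Rpl10a (-0.75), Rpl14 (-0.89), Rpl22l1 (-0.97), Rpl37a (-0.97), Rpl7 (-0.73) and Rplp1 (-0.69). These 6 of 46 are a smaller share than the 15.5% of all genes called lower in that fit. Leaving out single libraries gave between 1 and 42 calls, so the 6 are not set apart from the other members.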

How the results depend on the processing

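At 2 h no member passed in edgeR without a block, 39 rose with the replicate block, 26 without the pair of replicate 3 (40 with the block) and 40 with copies summed and the block; the median ran from 0.078 to 0.43 as 1 library was left out. The 2 alternatives named here, the pair left out and the copies summed, were chosen after seeing the data. At 14 h the count stayed within 1.5 times of 41 under every setting run, with 37 to 42 lower and a median of -0.48 to -0.43 as 1 library was left out. For the difference, 45 members were lower with the block, 42 without the pair of replicate 3 (45 with the block), 19 in DESeq2 and 46 with copies summed and the block; single libraries left out gave 1 to 42, with a median of -0.89 to -0.53. TE at 2 h had a median of -0.29 by total counts alone (-0.38 over all genes) and of -0.21 to 0.31 as 1 library was left out, with 0 to 1 members lower. TE at 14 h had 1 member lower with the block, 5 in DESeq2, and 1 to 6 as 1 library was left out. With a mean of at least 50 counts, 1 member could be tested, and it was lower. A pyrimidine run within 15 bases was found in 71.4% of the 35 members with an entry. As 1 library was left out, 2 h values ran from -0.023 to 0.34 for Rpl11, from -0.081 (without the IFN-β library of replicate 2; -0.036 without the vehicle library of replicate 3) to 0.33 for Rpl30 and from -0.033 to 0.27 for Rpl41. The causes were not tested. Depth limits the total RNA of the members, and shared sequence limits the 10 members with under 50% of their family's footprints on their own row.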
